A study of Mus musculus with 9 samples.

Results

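The genes described are 10 markers of the unfolded protein response and the integrated stress response: Atf4, Ddit3, Trib3, Asns, Chac1, Xbp1, Hspa5, Hsp90b1, Herpud1 and Pdia4. They were taken as every probe set whose single gene symbol on the array is one of these names. That gave 23 of the 45101 probe sets, of which 22 passed the filter on low signals and were tested. Each gene was represented by its brightest tested probe set, and 13376 genes were tested in this way. D3-pOct4 mouse embryonic stem cells, a single cell line, were kept for 7 days in a serum medium that in every group also held 2-mercaptoethanol, L-glutamine and nonessential amino acids. The groups were cells without leukemia inhibitory factor (LIF) but with 2 µM DETA/NO, a slow-releasing nitric oxide donor, cells without LIF, and cells with 1000 U/ml of LIF, the cytokine that keeps these cells undifferentiated. Each group has 3 Affymetrix Mouse Genome 430 2.0 arrays, numbered 1, 2 and 3 for passages 31, 33 and 34. Nothing in the labels says whether the passages were independent cultures, and the p-values below cover the spread between arrays, some of which may be technical.

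The endoplasmic reticulum (ER) folds secreted and membrane proteins. When unfolded proteins build up there, the sensors IRE1, ATF6 and PERK switch on a joint programme: IRE1 splices the Xbp1 message into a form that makes an active transcription factor, ATF6 is cut into one, and PERK phosphorylates the initiation factor eIF2 alpha, which slows protein synthesis in general while letting ATF4 be made. Kinases that sense amino acid shortage, haem or viral RNA also phosphorylate eIF2 alpha, so ATF4 and its target CHOP, the product of Ddit3, respond to more than the ER. The genes fall accordingly into an ATF4 branch (Atf4, Ddit3, Trib3, Asns, Chac1) and a branch of ER folding and degradation (Xbp1, Hspa5, Hsp90b1, Herpud1, Pdia4), called the ER chaperone branch here although Xbp1 encodes a transcription factor and Herpud1 a part of the degradation machinery.

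The promoters of 5 genes are shown because they hold the known binding motifs of the response within the 250 bases before the transcription start. The sequences are those of RefSeq on GRCm38.p6, given 5′ to 3′ on the gene's own strand and ending at the base before the start, with the matched motif in capitals. In Hspa5, from chr2:34771840-34772089 on the plus strand, the capitals mark first the unfolded protein response element core TGACGTG and then the ER stress response element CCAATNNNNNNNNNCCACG. In Hsp90b1, from chr10:86705445-86705694 on the minus strand, they mark 2 copies of the ER stress response element, the second of them on the opposite strand. In Herpud1, from chr8:94386179-94386428 on the plus strand, they mark the C/EBP-ATF response element TGATGNAA on the opposite strand and then the ER stress response element II, which reads ATTGG, any base, CCACG. In Asns, from chr6:7693210-7693459 on the minus strand, and Chac1, from chr2:119350992-119351241 on the plus strand, they mark the C/EBP-ATF response element, which in Chac1 lies on the opposite strand.
Hspa5: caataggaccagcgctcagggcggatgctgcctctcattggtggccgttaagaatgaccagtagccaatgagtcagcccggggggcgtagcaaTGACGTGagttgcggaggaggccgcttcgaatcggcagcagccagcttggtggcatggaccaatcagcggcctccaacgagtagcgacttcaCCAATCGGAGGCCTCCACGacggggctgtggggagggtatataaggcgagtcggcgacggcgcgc
Hsp90b1: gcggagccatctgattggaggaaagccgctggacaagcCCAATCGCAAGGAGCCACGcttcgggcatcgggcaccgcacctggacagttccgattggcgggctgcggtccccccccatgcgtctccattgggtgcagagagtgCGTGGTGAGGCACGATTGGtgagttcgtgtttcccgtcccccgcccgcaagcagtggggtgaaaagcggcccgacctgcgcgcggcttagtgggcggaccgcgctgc
Herpud1: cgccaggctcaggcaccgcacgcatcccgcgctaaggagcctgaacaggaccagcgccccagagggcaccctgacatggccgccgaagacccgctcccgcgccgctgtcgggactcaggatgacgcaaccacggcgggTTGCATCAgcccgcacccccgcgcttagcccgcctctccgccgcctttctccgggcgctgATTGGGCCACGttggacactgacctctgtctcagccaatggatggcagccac
Asns: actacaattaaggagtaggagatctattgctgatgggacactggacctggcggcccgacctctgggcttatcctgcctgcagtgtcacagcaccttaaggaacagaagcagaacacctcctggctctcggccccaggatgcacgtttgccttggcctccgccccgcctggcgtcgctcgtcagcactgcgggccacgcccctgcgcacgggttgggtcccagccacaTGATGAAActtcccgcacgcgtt
Chac1: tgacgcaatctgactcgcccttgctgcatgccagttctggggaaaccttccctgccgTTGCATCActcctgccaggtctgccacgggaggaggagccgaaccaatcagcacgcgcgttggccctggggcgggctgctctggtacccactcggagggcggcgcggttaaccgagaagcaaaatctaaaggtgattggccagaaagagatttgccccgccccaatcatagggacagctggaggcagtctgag

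Both strands were searched in 32851 promoters of this length. The ER stress response element was in 0.113% of them, its form II in 0.0304%, the unfolded protein response element core in 1.65% and the C/EBP-ATF response element in 3.45%. Herpud1 was the only one of the 10 genes whose window held both an ER stress element and a C/EBP-ATF element. The CCAAT box, which overlaps both kinds of ER stress element, was in 33.8% of promoters and in 7 of the 10. The windows of Atf4, Ddit3, Trib3, Xbp1 and Pdia4 held none of the 4 stress motifs, which says only that these letters are not within the 250 bases searched.

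The signals came from 9 arrays whose median signal ran from 13.9 to 23.3. It was 20.8 to 23.3 on donor replicates 1 and 2 and LIF replicate 1, called the brighter arrays below, and 13.9 to 17.8 on the other 6. The no LIF group has no brighter array. A fit with brightness as a block, used below, therefore cannot fully separate brightness from the groups. Socs3, a direct target of LIF signalling, read 95.8, 405 and 127 with the donor, 102, 3054 and 330 without LIF, and 3213, 282 and 1794 with LIF. The arrays labelled no LIF replicate 2 and LIF replicate 2 thus went against their labels. Donor replicate 3 and no LIF replicate 1 were the most alike of all pairs of arrays, with r = 0.977 over the tested probe sets. Their median signals, 15.0 and 13.9, were among the lowest, with LIF replicate 2 also at 15.0. The stem cell markers (8 genes) were all measured, with summed signals of 12783 to 17077 with the donor, 18346 to 27913 without LIF and 15695 to 23265 with LIF. The markers of primitive and parietal endoderm, a secretory cell type with a large ER, were also all above the filter (10 of 10), and their sums ran from 2403 to 5300 with the donor, 2461 to 7365 without LIF and 5248 to 17114 with LIF. Of the visceral endoderm markers 3 of 6 were tested, and Apoa1 was below the 40th percentile on all arrays. Summed over all 6, tested or not, they gave 88.2 to 317 with the donor, 91.5 to 486 without LIF and 210 to 1172 with LIF. Of the fibroblast markers 3 of 7 were tested, and Postn and Lum were below the 40th percentile on all arrays. Summed over all 7, tested or not, they gave 67.5 to 142 with the donor, 71.7 to 144 without LIF and 74.9 to 144 with LIF. In these bulk samples, fewer cells of a type and less RNA per cell cannot be told apart.

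None of the 10 genes passed the test in any comparison. In limma, with p-values adjusted by Benjamini-Hochberg over 29811 probe sets, 0.0% of probe sets were called at a threshold of 0.05 with the donor against no LIF, 0.0% without LIF against LIF and 0.0% with the donor against LIF. At an unadjusted p under 0.05 there were 1498 probe sets (5.02%) in the first of these comparisons, 459 (1.54%) in the second and 578 (1.94%) in the third. From the lowest to the highest array, the signals of the 10 genes varied by 2.03-fold to 9.18-fold, a range that spans groups, cultures and array brightness. Signals are on the linear scale of the array software, and since each probe set binds with its own strength, levels are compared between arrays and not between genes. Mean signal served only to pick the probe set of a gene and the listed genes to name, and marker sums are set only against the same sum on other arrays.

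**Figure D1:**
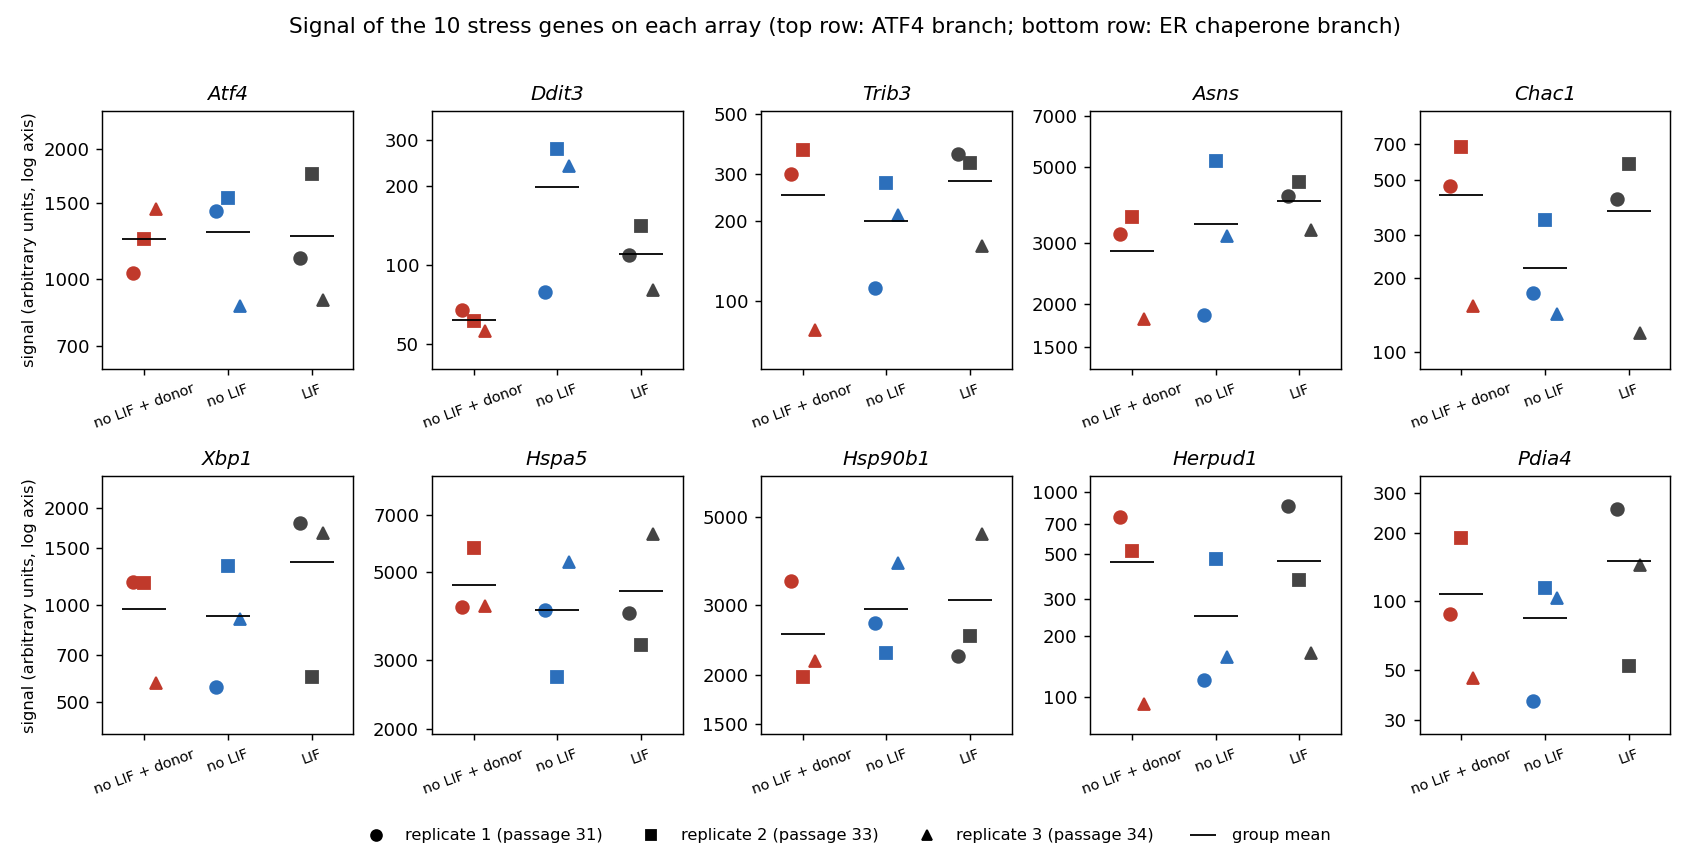
Signal of each of the 10 genes (log axis, scaled intensity) on the 9 arrays, with the 3 groups side by side (no LIF + donor, no LIF, LIF), circles, squares and triangles for replicates 1, 2 and 3 and a bar for the group mean. The groups overlap in every panel for no LIF against LIF, while in the Ddit3 panel the 3 donor arrays, at 56.1 to 67.1, lie below every other array.

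Atf4 encodes the transcription factor at the head of its branch, whose output is set largely by translation rather than by the amount of its message. Its signal was 1030, 1238 and 1457 with the donor, 1438, 1545 and 865 without LIF, and 1118, 1758 and 893 with LIF. The groups overlapped fully and their means lay close together, at 1241 ± 214 with the donor, 1283 ± 366 without LIF and 1256 ± 449 with LIF (SD, n = 3 each). Atf4 thus had the narrowest range of the 10 genes, 2.03-fold from the lowest array to the highest. The 95% confidence interval of its log2 difference was -0.79 to 0.76 for the donor against no LIF, and -0.73 to 0.82 for no LIF against LIF.

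Ddit3 encodes CHOP, a transcription factor linked to death under prolonged ER stress. Its signal was 67.1, 61.1 and 56.1 with the donor, 78.6, 276 and 237 without LIF, and 109, 141 and 80.0 with LIF. All 3 donor arrays lay below the other 6, and their spread was small, with a mean of 61.4 ± 5.49 against 197 ± 105 without LIF and 110 ± 30.6 with LIF. By passage, the log2 differences of donor and no LIF were -0.22, -2.12 and -2.02, all negative as the lack of overlap requires. The fitted log2 difference was -1.46 (SE 0.49, 95% interval -2.53 to -0.38). In limma that had an unadjusted p of 0.0125 and an adjusted p of 0.929, and so did not pass the test. Over all genes 2.33% had an unadjusted p under 0.05 in this comparison, and in 6.65% the groups did not overlap.

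Against LIF, Ddit3 with the donor differed by -0.78 on the log2 scale (SE 0.49, adjusted p 1.0 in limma), again without overlap, as did 6.25% of genes in that comparison. The 2 comparisons share the donor arrays. Leaving out the arrays labelled no LIF replicate 2 and LIF replicate 2 gave -1.12 for donor against no LIF, with an unadjusted p of 0.0654 in limma. Ddit3 has another tested probe set, which ranked the arrays differently, with r = -0.06 between them over the 9 arrays. That one read 76.7, 38.7 and 9.40 with the donor, 18.7, 43.4 and 12.4 without LIF, and 96.6, 13.3 and 25.9 with LIF. Its log2 difference of donor and no LIF was 0.47 (SE 0.81), the opposite direction, and the mean over both was -0.49. The low Ddit3 signal with the donor therefore rests on 1 of the gene's 2 probe sets.

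Trib3 encodes a pseudokinase that CHOP and ATF4 induce and that dampens ATF4. Its signal was 300, 369 and 78.2 with the donor, 112, 278 and 211 without LIF, and 357, 328 and 161 with LIF. The lowest arrays were donor replicate 3 and no LIF replicate 1, the most alike pair, and the highest was another donor array, so the groups overlapped. The means were 249 ± 152 with the donor, 200 ± 83.7 without LIF and 282 ± 106 with LIF (SD, n = 3 each). The second probe set of Trib3 followed the first with r = 0.95.

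Asns encodes asparagine synthetase, the textbook target of ATF4 under amino acid shortage. Its signal was 3184, 3570 and 1814 with the donor, 1862, 5186 and 3151 without LIF, and 4107, 4524 and 3278 with LIF. Donor replicate 3 and no LIF replicate 1 were again the lowest, at 1814 and 1862, against at least 3151 on the other 7 arrays. With the donor Asns was lower than with LIF in 3 of 3 passages, with differences of -0.37, -0.34 and -0.85 on the log2 scale. The share of all genes with 1 direction in every passage was not counted. The fitted difference was -0.52 (SE 0.39) with an adjusted p of 1.0 in limma, and the groups overlapped.

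Chac1 encodes an enzyme that degrades glutathione and is induced by ATF4. Its signal was 472, 685 and 154 with the donor, 174, 345 and 143 without LIF, and 419, 585 and 120 with LIF. The arrays fell into a low set of 4, from 120 to 174, and a high set of 5, from 345 to 685, and each group had arrays in both. Every replicate 3 was in the low set, together with no LIF replicate 1. With the donor Chac1 was higher than without LIF in 3 of 3 passages, by 1.42, 0.98 and 0.10 on the log2 scale, and the fitted difference of 0.84 (SE 0.68) had an adjusted p of 0.929 in limma. In a fit with the 3 brighter arrays as a block this difference was 0.00, but that fit cannot fully separate the donor from brightness. The share of all genes with the same direction in 3 of 3 passages was not counted.

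In the ER chaperone branch, Xbp1 encodes the transcription factor that IRE1 activates by splicing. The probe sets were not used here to tell the spliced from the unspliced message. Its signal was 1182, 1168 and 572 with the donor, 554, 1321 and 903 without LIF, and 1800, 599 and 1671 with LIF. Low values of 554 to 599 were found once in each group, on donor replicate 3, no LIF replicate 1 and the array labelled LIF replicate 2. The means were 974 ± 348 with the donor, 926 ± 384 without LIF and 1357 ± 660 with LIF (SD, n = 3 each). Of the 3 other probe sets of Xbp1, 2 followed it with r = 0.98 and 0.94, and the dimmest with 0.59.

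Pdia4 encodes a protein disulfide isomerase of the ER lumen and tracked Xbp1. Its signal was 87.4, 189 and 46.0 with the donor, 36.3, 114 and 103 without LIF, and 253, 51.9 and 144 with LIF. Its 3 lowest arrays were the 3 that were low for Xbp1, and LIF replicate 1 was the highest for both genes. The groups overlapped, with means of 107 ± 73.4 with the donor, 84.4 ± 41.9 without LIF and 149 ± 100 with LIF (SD, n = 3 each). Its other tested probe set was near background, at 0.564 to 14.3.

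Hspa5 encodes BiP, the most studied ER chaperone, which also holds the stress sensors inactive. Its signal was 4078, 5756 and 4096 with the donor, 4010, 2716 and 5303 without LIF, and 3940, 3275 and 6266 with LIF. The highest array was LIF replicate 3 and the lowest was the one labelled no LIF replicate 2, a 2.31-fold range with the groups overlapping. The means were 4643 ± 964 with the donor, 4010 ± 1294 without LIF and 4494 ± 1571 with LIF (SD, n = 3 each). The log2 difference of donor and no LIF was 0.24, with a 95% interval of -0.49 to 0.98.

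Hsp90b1 encodes GRP94, the HSP90 of the ER. Its signal was 3442, 1978 and 2170 with the donor, 2704, 2273 and 3834 without LIF, and 2231, 2504 and 4535 with LIF. LIF replicate 3 was again the highest, followed by no LIF replicate 3, and these were 2 of the 3 highest arrays of Hspa5. LIF replicate 3 also had the highest sum of primitive and parietal endoderm markers, 17114, against 2403 to 7365 on the other 8 arrays. The part of these cells in the chaperone signals was not tested. The log2 difference of donor and no LIF was -0.22 for Hsp90b1, with a 95% interval of -1.01 to 0.56.

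Herpud1 encodes a membrane protein of ER-associated degradation, and varied most of the 10 genes. Its signal was 757, 515 and 92.6 with the donor, 121, 470 and 157 without LIF, and 851, 371 and 164 with LIF. The same 4 arrays as for Chac1 were low, at 92.6 to 164, and the other 5 read 371 to 851. The 3 highest, LIF replicate 1 and donor replicates 1 and 2, were the 3 brighter arrays, and whether brightness takes part was not tested beyond the values that follow. With brightness as a block, the log2 difference of donor and no LIF was -0.83, against 0.67 (SE 0.84, adjusted p 0.955 in limma) without it. Donor replicates 1 and 2 are brighter arrays and the no LIF group has none, so the block does not fully separate donor and brightness. The second probe set of Herpud1 followed the first with r = 0.97.

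**Figure D2:**
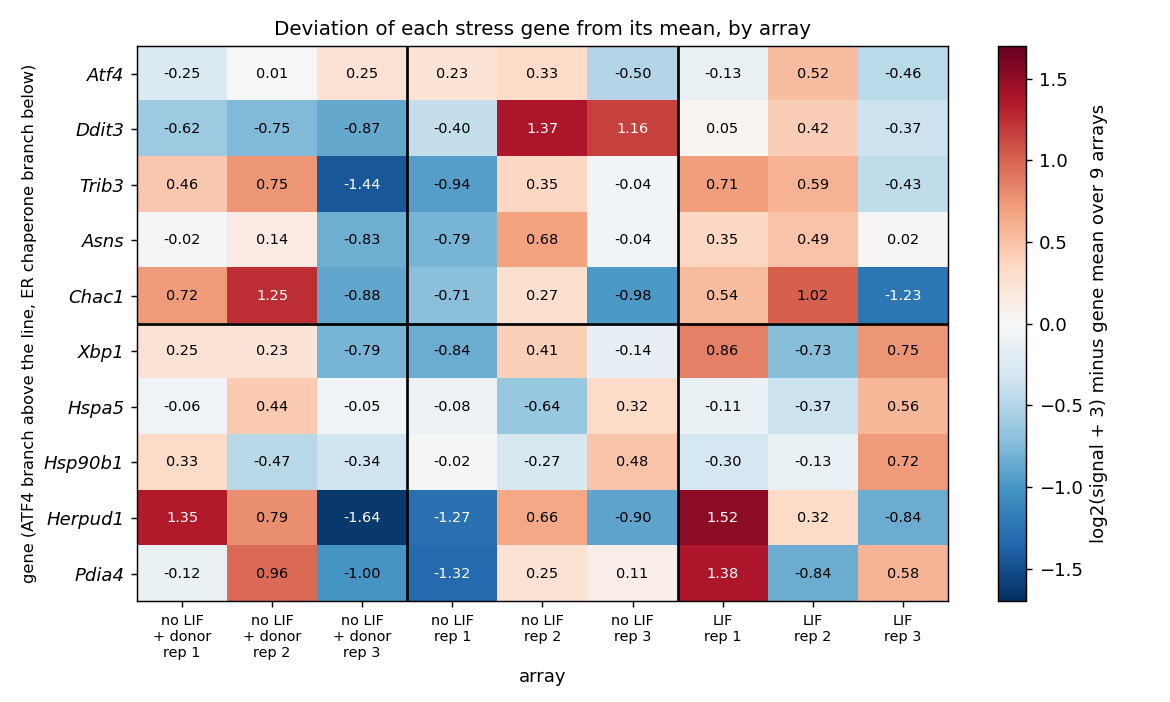
Deviation of log2(signal + 3) of each gene (down) from its own mean over the 9 arrays (across, by group), red for above and blue for below, with the value in each cell. Donor replicate 3 and no LIF replicate 1 are blue for Trib3, Asns, Chac1, Xbp1, Herpud1 and Pdia4 and at -0.34 to -0.02 for Hspa5 and Hsp90b1, and the 3 donor arrays are blue for Ddit3.

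Set against each other by group, the genes split in direction without any passing the test. With the donor, 6 of the 10 genes were higher than without LIF and 4 lower (47.6% and 52.4% of all genes), with log2 differences from -1.46 for Ddit3 to 0.84 for Chac1 and a median of 0.11, against -0.02 over all genes. Of the ER chaperone branch 4 of 5 were higher, with a median of 0.24, and of the ATF4 branch 2 of 5, with a median of -0.02. The ER chaperone branch turned with the arrays and settings used: its median was -0.54 (1 higher, 4 lower) with brightness as a block, 0.02 with median centring, -0.23 without no LIF replicate 1 and -0.07 without donor replicate 2. With brightness as a block, 2 of the 10 genes were higher and 7 lower. The no LIF group has no brighter array, so the block cannot fully separate the donor from brightness. The stem cell markers were lower with the donor in 8 of 8 genes, with a median of -0.41 and 2 of them without overlap (6.65% of all genes), and their part in these values was not tested.

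Without LIF, 2 of the 10 genes were higher than with LIF and 8 lower, with a median of -0.41 against 0.01 over all genes, where 50.4% were higher and 49.6% lower. The 2 were Atf4, at 0.04, and Ddit3, at 0.68 (SE 0.49). The 5 genes of the ER chaperone branch were all lower, from -0.83 for Herpud1 and -0.69 for Pdia4 to -0.04 for Hsp90b1. The sizes depended on single arrays: with 1 array left out Herpud1 ran from -1.42 (without no LIF replicate 2, or without LIF replicate 3) to -0.24 (without LIF replicate 1), and Pdia4 from -1.30 (without LIF replicate 2) to -0.19 (without LIF replicate 1, or without no LIF replicate 1). With brightness as a block they were -0.09 and -0.21. The smallest adjusted p among the 10 was 0.973 in limma, no gene had groups without overlap (7.32% of all genes did), and none had an unadjusted p under 0.05 (1.12% did). With the arrays centred on their medians, 4 were higher and 6 lower. The primitive and parietal endoderm markers were lower without LIF in 10 of 10 genes too, with a median of -0.98, and their part was not tested.

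With the donor against LIF, 3 of the 10 genes were higher and 7 lower (49.1% and 50.9% of all genes), with a median of -0.31 against -0.01 over all genes. The differences ran from -0.78 for Ddit3 to 0.25 for Chac1, and none of the 10 had an unadjusted p under 0.05, against 1.76% of all genes. Without donor replicate 3 and no LIF replicate 1, 5 were higher and 5 lower. The median of the ER chaperone branch was -0.26 (1 higher, 4 lower), but 0.02 without LIF replicate 1 and 0.05 without donor replicate 3 (3 higher, 2 lower each). The endoderm markers were lower with the donor than with LIF in 10 of 10 genes, with a median of -1.23. The 3 comparisons share arrays, so the directions are not independent of each other.

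**Figure D3:**
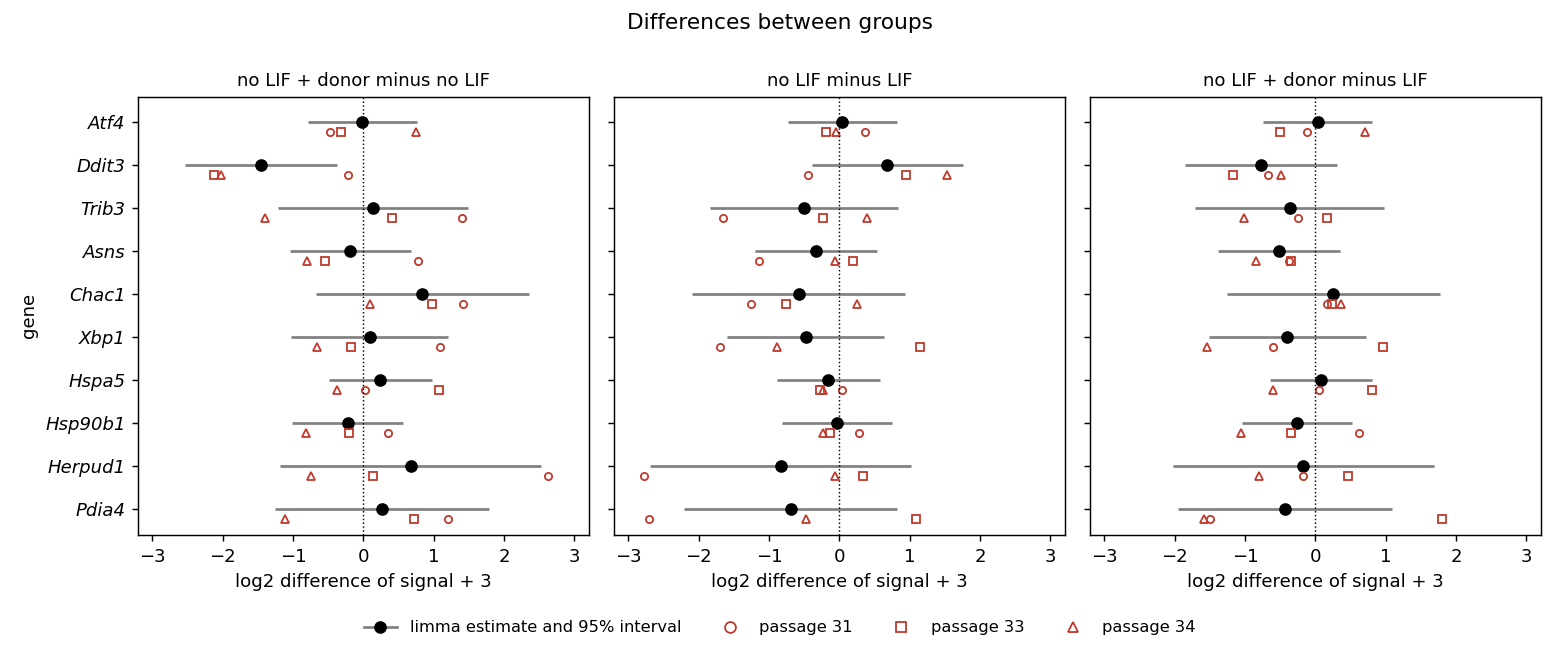
Log2 difference of each gene (down) in the 3 comparisons (donor minus no LIF, no LIF minus LIF, donor minus LIF), as black points with 95% confidence intervals from limma, and the difference within each passage as open symbols. The intervals cross 0 except that of Ddit3 for donor minus no LIF, at -2.53 to -0.38, whose adjusted p is 0.929.

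The balance of the branches was described by the mean deviation of the 5 ATF4 branch genes minus that of the 5 ER chaperone branch genes on each array, on the log2 scale. It was -0.29, -0.11 and 0.01 with the donor, 0.18, 0.52 and -0.06 without LIF, and -0.37, 0.96 and -0.85 with LIF. The LIF arrays were the most spread of the 3 groups and held both extremes, the ATF4 branch being relatively high on the array labelled LIF replicate 2 and relatively low on LIF replicate 3. The means were -0.13 ± 0.15 with the donor, 0.22 ± 0.29 without LIF and -0.09 ± 0.94 with LIF (SD, n = 3 each), so the groups overlapped. On donor replicate 3 and no LIF replicate 1 the means of both branches were low together. The ATF4 branch stood at -0.75 and -0.52 and the ER chaperone branch at -0.77 and -0.71. Not all members followed: Atf4 stood at 0.25 and 0.23 there, and Hspa5 and Hsp90b1 together at -0.20 and -0.05. On LIF replicate 1 the ER chaperone branch stood at 0.67, but Hspa5 and Hsp90b1 together at -0.20. Donor replicate 3 and no LIF replicate 1 also had the lowest ratios of 3' to 5' signal of beta-actin. They were 1.62 and 1.52, against 1.81 to 3.15 on the other 7. The ratio is a sign of RNA quality and rises as RNA degrades. For Gapdh the ratios were 0.856 and 0.823, within the 0.812 to 0.955 of the others. The part of RNA quality in the low values was not tested.

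Across the 9 arrays, the genes did not sort by branch. Of 45 pairs of genes, 28 correlated positively and 17 negatively, and 2 passed Benjamini-Hochberg adjustment over the 45 pairs in exact permutation tests (two-sided). Both involve the ER chaperone branch. Herpud1 followed Trib3, a gene of the other branch, with Pearson's r = 0.90 (exact p 0.000389, adjusted p 0.0175) and Spearman's rho = 0.87 (exact p 0.00451, adjusted p 0.101). Pdia4 followed Xbp1 with r = 0.92 (exact p 0.00125, adjusted p 0.028) and rho = 0.87 (exact p 0.00451, adjusted p 0.101).

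Within the 6 dimmer arrays r was 0.91 for Trib3 and Herpud1 and 0.96 for Xbp1 and Pdia4. Without the 2 arrays farthest from the median of the first gene it was 0.85 and 0.83. For both Trib3 and Xbp1 those are donor replicate 3 and no LIF replicate 1, the most alike pair. Leaving out the most alike pair is therefore the same check and not a further one. The exact permutation p adjusted over 45 pairs was 0.125 to 0.193 in these settings, none past the threshold. Both relations span a gap between low and high arrays, with 4 arrays below it and 5 above it for Herpud1 and 3 below and 6 above for Pdia4. Among the 6 arrays above it, Xbp1 and Pdia4 had r = 0.63, and the 5 above it for Herpud1 are too few for a value, so how far the pooled r rests on the step between the sets was not tested for that pair. Herpud1 was the 28th of 13375 other genes by r with Trib3, and Trib3 the 49th by r with Herpud1. Xbp1 was the 84th by r with Pdia4, and Pdia4 the 158th by r with Xbp1.

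Chac1 also went with Herpud1 (r = 0.84, exact p 0.0123, adjusted p 0.111). Herpud1 was the 21st gene by r with Chac1, and Chac1 the 232nd by r with Herpud1. Trib3 went with Chac1 at r = 0.81 (exact p 0.00776, adjusted p 0.0873) and with Asns at r = 0.86 (exact p 0.00455, adjusted p 0.0682), the last being 0.43 without the 2 farthest arrays. These did not pass the adjusted threshold. Over the 9 arrays Atf4 itself ran apart from its targets, with r = -0.06 to Trib3, 0.04 to Asns and 0.39 to Chac1 (adjusted p 0.978, 0.978 and 0.601 in the exact tests). Within the 6 dimmer arrays its r was 0.11 to Trib3, 0.09 to Asns and 0.77 to Chac1, and -0.88 to Hspa5 and -0.91 to Hsp90b1. Its strongest relations over the 9 arrays were negative, at r = -0.74 with Hspa5 (exact p 0.0239, adjusted p 0.153) and -0.73 with Hsp90b1 (exact p 0.0306, adjusted p 0.172), which did not pass either. Hspa5 and Hsp90b1 had r = 0.48 with each other (exact p 0.197, adjusted p 0.444). These relations rest on 1 probe set a gene: the other 2 of Hspa5 followed the one used with r = 0.85 and -0.11, and the other of Hsp90b1 with 0.49, its log2 difference of donor and no LIF being 0.09 against -0.22.

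**Figure D4:**
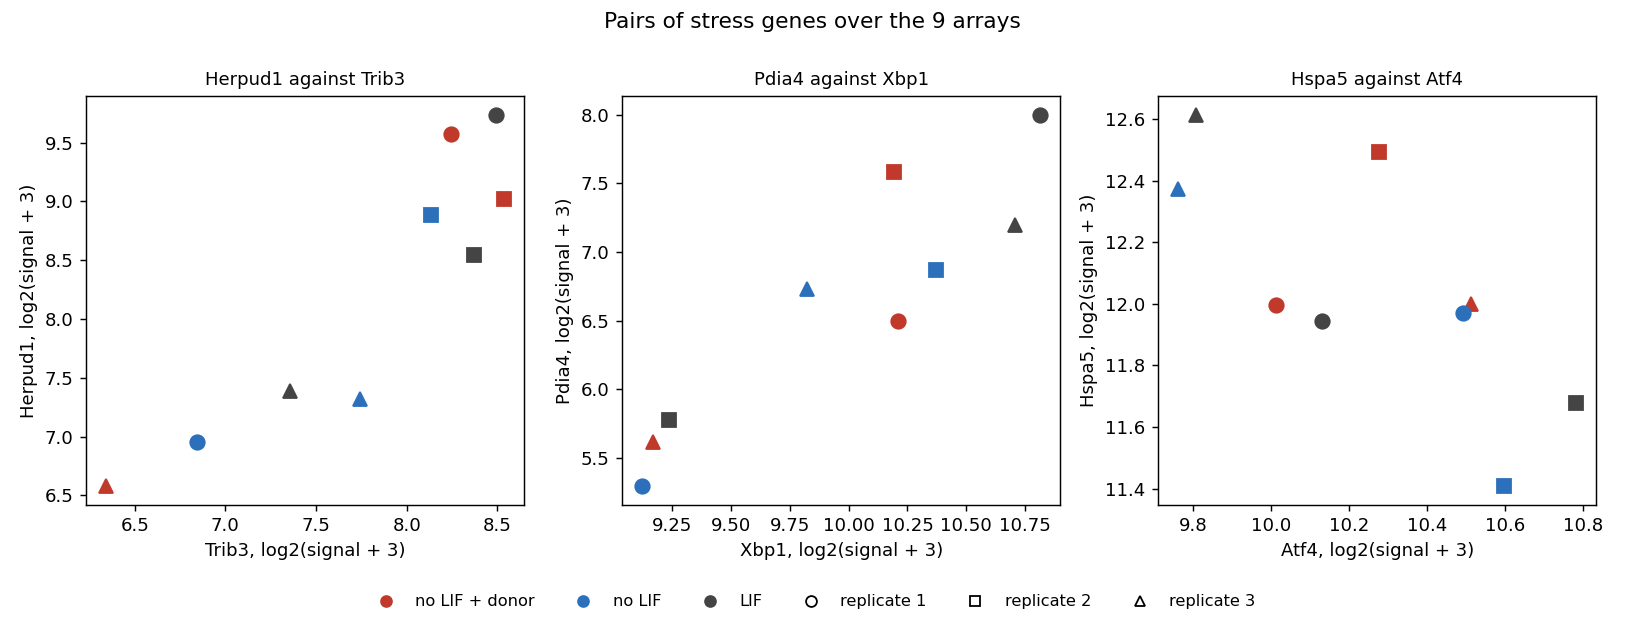
Log2(signal + 3) of Herpud1 against Trib3 (left), Pdia4 against Xbp1 (middle) and Hspa5 against Atf4 (right), 1 point per array, red for the donor, blue for no LIF and dark grey for LIF, with circles, squares and triangles for replicates 1, 2 and 3. The points climb together on the left (r = 0.90) and in the middle (r = 0.92) and run opposite ways on the right (r = -0.74), with each colour spread along the trend.

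Other genes of the pathways were taken from 3 lists. Of 22 further ER chaperone and degradation genes, all tested, 15 were higher and 7 lower with the donor than without LIF, with a median of 0.08, and 6 were higher and 16 lower without LIF than with it, with a median of -0.26. None was called. Calreticulin (Calr), a lectin chaperone, read 5406, 6186 and 2211 with the donor, 2185, 4668 and 5961 without LIF, and 7749, 2985 and 5931 with LIF. Its low arrays were those low for Xbp1 and Pdia4, and its log2 difference of donor and no LIF was 0.09 (SE 0.51). Its partner calnexin (Canx) differed by -0.03 (SE 0.34) and the disulfide isomerase P4hb by -0.20 (SE 0.45), none past the test.

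Of 23 further ATF4 and CHOP targets 22 were tested, Slc7a11 being too dim. With the donor 8 were higher and 14 lower than without LIF (median -0.07), without LIF 7 were higher and 15 lower than with it (median -0.34), and with the donor 4 were higher and 18 lower than with LIF (median -0.28). None was called in limma. In the last comparison the groups did not overlap for 4 of 22 (6.25% of all genes), Atf5, Cebpb, Shmt2 and Ppp1r15a, all lower with the donor and listed after their values were seen. Of the 22, 1 had an unadjusted p under 0.05 (1.76% of all genes). That was the transcription factor gene Cebpb, with a signal of 63.8 ± 9.61 with the donor and 145 ± 74.2 with LIF (SD, n = 3 each; unadjusted p 0.0277 and adjusted p 1.0 in limma). Slc3a2 and Slc7a5, which together form an amino acid transporter, were named with Phgdh, the first enzyme of serine synthesis, for their mean signals. Slc7a5 read 2638, 1454 and 409 with the donor, 431, 2048 and 1378 without LIF, and 2470, 1899 and 2023 with LIF, and Slc3a2 read 4412, 3597 and 1053 with the donor, 1008, 3462 and 1963 without LIF, and 5197, 2153 and 2842 with LIF. Donor replicate 3 and no LIF replicate 1 were the lowest for both transporter genes, and their log2 differences of no LIF and LIF, -0.99 (SE 0.68) and -0.74 (SE 0.60), did not pass the test. Phgdh had no such pattern, at 1115 and 1258 on those arrays and 810 to 2078 on the others.

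Of 11 stress sensors, eIF2 alpha kinases and their regulators 10 had a named probe set. With the donor 8 were higher and 2 lower than without LIF (median 0.15), and without LIF 1 was higher and 9 lower than with it (median -0.42), none called. Named for their mean signals were Ppp1r15b, which encodes a subunit of an eIF2 alpha phosphatase, and Mbtps1 and Mbtps2, the proteases that cut ATF6. Ppp1r15b read 1880, 1244 and 439 with the donor, 487, 1173 and 827 without LIF, and 1951, 915 and 1290 with LIF. Its 2 lowest arrays were again donor replicate 3 and no LIF replicate 1, as were those of Mbtps1 (459 and 451, against 747 to 1044) and Mbtps2 (241 and 202, against 286 to 643). The share of all genes that were lowest on this pair of arrays was not counted, so the pattern is not shown to be particular to stress genes.

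Each list was set beside the mean of each branch over the 9 arrays, as a description only, since all points share the same arrays. With the mean of the ATF4 branch, the further ATF4 and CHOP targets had a median r of 0.60, and 8 of 22 (36.4%) were above 0.7, against a median of 0.03 and 2.74% over all genes. The further ER genes had a median of 0.18 and 0 of 22 above 0.7 there. With the mean of the ER chaperone branch, the further ER genes had a median r of 0.75 and 11 of 22 above 0.7, against 0.01 and 16.2% over all genes, and the ATF4 and CHOP targets had 0.28 and 5 of 22 (22.7%). The mean of the ER chaperone branch also went with array brightness. It stood at 0.35, 0.39 and 0.67 on donor replicates 1 and 2 and LIF replicate 1, the brighter arrays. On LIF replicate 3, next in median signal at 17.8, it was 0.35, and on the rest from -0.77 to 0.08. The part of brightness in these values of r was not tested. The stress sensors and eIF2 alpha kinases had a median r of 0.71 and 5 of 10 above 0.7 with the ER chaperone branch, and 0.44 and 0 of 10 with the ATF4 branch. Aldh18a1, Shmt2 and Pck2, enzymes of proline synthesis, serine and one-carbon metabolism and phosphoenolpyruvate synthesis, had the highest r with the ATF4 branch among the listed targets, at 0.89, 0.86 and 0.83. Syvn1, the ubiquitin ligase of ER-associated degradation, Calr and the chaperone Hyou1 had 0.96, 0.96 and 0.95 with the ER chaperone branch. These 6 were named after their values were seen, apart from Calr.

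**Figure D5:**
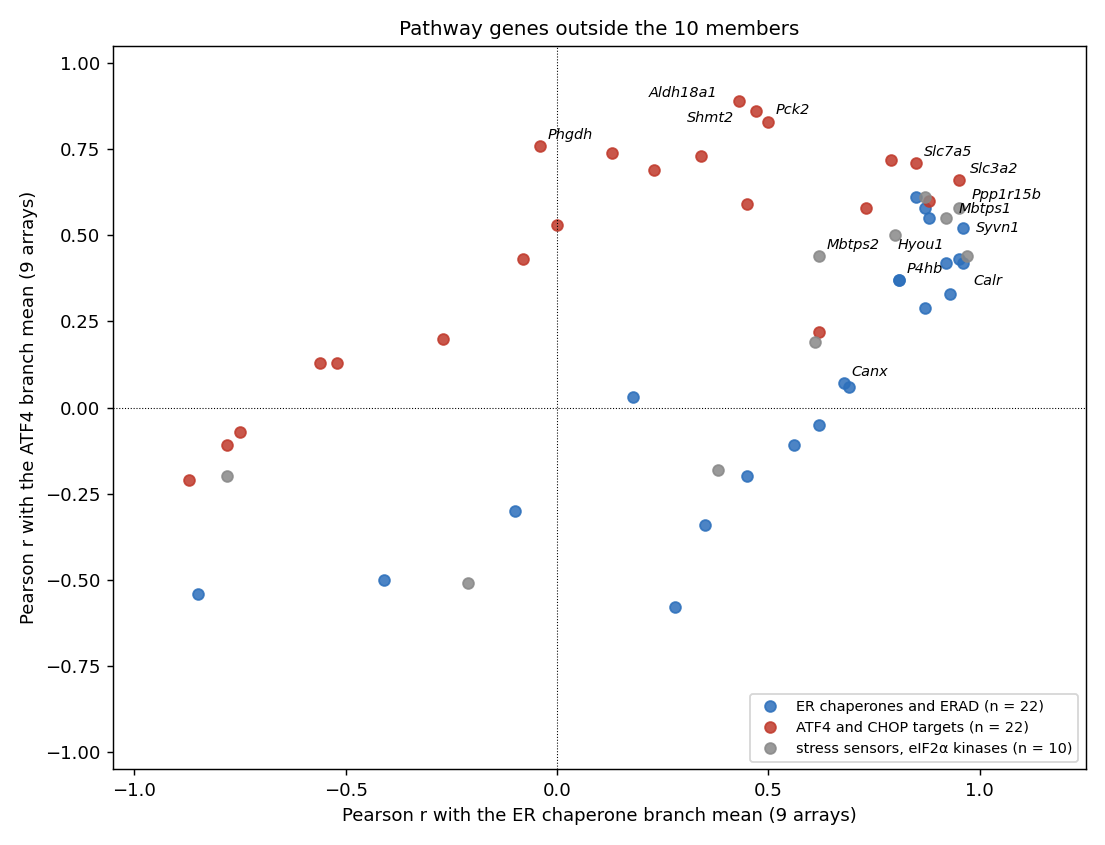
Pearson's r over 9 arrays of each further pathway gene with the mean deviation of the ER chaperone branch (horizontal) and of the ATF4 branch (vertical), coloured by list. ER genes (blue, 22) lie mostly to the right, with 11 above 0.7, and ATF4 and CHOP targets (red, 22) reach highest, with 8 above 0.7, while 5 of them are also above 0.7 on the horizontal axis.

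Of all genes outside the 10, those most alike to the mean of the ATF4 branch over the 9 arrays were Jdp2 (r = 0.94), which encodes a leucine zipper protein of the AP-1 family, Tspan18 (0.94), Brd1 (0.91), Trim35 (0.90) and Arfgef2 (0.90). Jdp2 read 140, 93.9 and 40.4 with the donor, 44.9, 269 and 136 without LIF, and 187, 231 and 52.7 with LIF. Tspan18 was dim, at 12.9 to 23.4. Those most alike to the ER chaperone branch were Spi1, Slc38a10, Yipf1 and Adarb1 (each r = 0.99) and 4831440E17Rik (0.98). The mean of that branch went with array brightness, whose part in these values was not tested. Spi1 and 4831440E17Rik were dim, at no more than 24.1 and 25.7, while Slc38a10, an amino acid transporter by family, ran from 165 to 2093. Within the ER chaperone branch, r with the branch mean was 0.94 for Xbp1, 0.93 for Pdia4, 0.75 for Herpud1, 0.29 for Hspa5 and 0.16 for Hsp90b1. Each of these genes is part of that mean, so genes with a wide spread follow it in part by construction.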

How the data were processed

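Gene expression was measured on 9 arrays. The authors' deposited table holds linear signal intensities of 45101 probe sets, from 0.0144 to 17201. They were made with GeneChip Operating System 1.4.0.036 under global scaling, per the labels' design text. MAS5 is listed in the submitters' processing notes. Detection calls were not used here.

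Signals were turned to log2(signal + 3), so folds of dim probe sets are understated. Testing required a signal no lower than the array's 40th percentile on 3 or more of 9 arrays, and 64 control probe sets were left out. The 3 groups, taken from the labels, were compared in 1 fit with limma 3.58.1 in R 4.3.3 (lmFit, eBayes with an intensity trend), two-sided, adjusted by Benjamini-Hochberg over 29811 probe sets. Correlations used exact permutation tests over 9 arrays (scipy 1.17.1). Gene names are those of the platform annotation.

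The members and lists were chosen with earlier results of these data known. Named are the 10 genes, called genes and the 3 brightest of each list, and the 5 genes most alike to each branch; exceptions are stated. Alternatives covered the pseudocount, filter, normalization, variance trend, replicate block, left-out arrays, brightness and the mean of probe sets.

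A self-test used simulated data for the donor against no LIF, with 29811 probe sets and the spread seen. In sets of 50, it called 2% of those shifted by a log2 value of 1, 26% at 2, 56% at 3 and 84% at 4, and made 3 false calls. Every value was drawn independently from a normal distribution. On the real arrays, deviations from the group means correlated between arrays, from -0.636 to 0.65. The simulated shares and false calls therefore need not hold for these data. The number of arrays and their spread limit the precision, with a median standard error of 0.5.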

Additional observations from a re-analysis of the deposited data

How the results depend on the processing

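The count of probe sets called by limma was 0 in each comparison under every alternative run. At an unadjusted p under 0.05, with 1 array left out at a time, the count for the donor against no LIF ran from 486 to 4290, the highest without donor replicate 3. Of 390 values of the 10 genes under alternatives other than 1 array left out, 359 kept their direction and 31 did not, and no call changed. The filter, the variance trend, the replicate block and a fit of only the 6 arrays compared cannot move the fitted difference. Their values kept the direction by construction. With 1 array left out, 233 of 270 kept it and 37 did not. There the difference cannot move either when the array belongs to the group not compared. Both shares therefore overstate how stable the directions are. For the values that turned the cause was not tested. For donor minus no LIF, the turned values were 0.16 (Atf4), 0.05 (Asns) and 0.02 (Hsp90b1) with quantile normalization, -0.09 (Trib3) and -0.14 (Xbp1) with median centring, and 0.14 (Atf4), 0.18 (Asns) and -0.01 (Hspa5) without the arrays labelled replicate 2 with and without LIF. With brightness as a block they were 0.16 (Atf4), -0.76 (Trib3), 0.00 (Chac1), -0.54 (Xbp1), -0.83 (Herpud1) and -0.71 (Pdia4), and with the mean of probe sets 0.04 (Atf4). For no LIF minus LIF they were -0.12 (Atf4) with quantile normalization, 0.06 (Hspa5) and 0.18 (Hsp90b1) with median centring, 0.02 (Hsp90b1) without both replicate 2 arrays, -0.04 (Atf4) with brightness as a block, and -0.06 (Atf4), 0.04 (Asns) and 0.01 (Hsp90b1) without the most alike pair. For donor minus LIF they were -0.10 (Atf4), 0.32 (Trib3), 0.74 (Herpud1) and 0.05 (Pdia4) without the most alike pair, -0.17 (Chac1) with brightness as a block, -0.12 (Hspa5) without both replicate 2 arrays, and -0.02 (Hspa5) and 0.19 (Pdia4) with the mean of probe sets. With 1 array left out, the genes that turned for donor minus no LIF ranged over -0.28 to 0.14 (Atf4), -0.28 to 0.82 (Trib3), -0.56 to 0.18 (Asns), -0.24 to 0.43 (Xbp1), -0.01 to 0.47 (Hspa5) and -0.24 to 0.74 (Pdia4). For no LIF minus LIF the ranges were -0.17 to 0.31 (Atf4), -0.70 to 0.04 (Asns), -0.39 to 0.11 (Hspa5) and -0.24 to 0.28 (Hsp90b1). For donor minus LIF they were -0.19 to 0.30 (Atf4), -0.78 to 0.32 (Trib3), -0.42 to 0.87 (Chac1), -0.12 to 0.35 (Hspa5), -0.50 to 0.05 (Hsp90b1), -0.76 to 0.74 (Herpud1) and -1.03 to 0.07 (Pdia4). Ddit3 for donor minus no LIF stayed between -2.01 (without no LIF replicate 1) and -1.12 (without no LIF replicate 2), at an unadjusted limma p of 0.00052 and 0.0586. The median of the ATF4 branch for donor minus LIF was -0.21 without both replicate 2 arrays, -0.10 without the most alike pair and -0.68 with brightness as a block, against -0.36. The correlation of Trib3 and Herpud1 was 0.91, 0.85 and 0.85 within the 6 dimmer arrays, without the 2 farthest arrays and without the most alike pair (adjusted exact permutation p 0.188, 0.193 and 0.156), and that of Xbp1 and Pdia4 was 0.96, 0.83 and 0.83 (0.125, 0.193 and 0.156). The omission of the most alike pair was chosen after the data were seen for these correlations. The 2 farthest arrays of Trib3 and of Xbp1 are that same pair. Both settings therefore give the same correlation, and only the adjustment over the 45 pairs differs.

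Between arrays with the same replicate number, deviations from the group means correlated from -0.597 to 0.65. The arrays are few and some go against their labels, so this cannot tell whether the numbers pair the samples. With the replicate number as a block, the SE for donor minus no LIF was 0.40 against 0.68 for Chac1 and 0.67 against 0.84 for Herpud1. It was 0.57 against 0.50 for Xbp1 and 0.78 against 0.69 for Pdia4. With the replicate block the counts of calls stayed at 0, with 1602, 493 and 471 probe sets at an unadjusted p under 0.05, and Ddit3 for donor minus no LIF was -1.46 (adjusted limma p 0.916).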

Other observations

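On the array labelled LIF replicate 2, the ATF4 branch deviated by 0.61 on the log2 scale and the ER chaperone branch by -0.35, and on LIF replicate 3 they deviated by -0.49 and 0.35, opposite ways within 1 group. On the array labelled no LIF replicate 2 the ATF4 branch stood at 0.60, while Hspa5 and Hsp90b1 together stood at -0.46, their lowest of the 9 arrays. On LIF replicate 3, Hspa5 and Hsp90b1 together stood at 0.64, their highest.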
